A study of Saccharomyces cerevisiae with 2 samples.

Results

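*Saccharomyces cerevisiae* makes phenylalanine, tyrosine and tryptophan from erythrose 4-phosphate and phosphoenolpyruvate. The DAHP synthases start the pathway, the shikimate trunk carries it to chorismate, and chorismate is then split between a branch to tryptophan and a branch to phenylalanine and tyrosine. Many genes of amino acid synthesis are induced by the activator Gcn4p when amino acids run short, a response called general amino acid control. Transcripts of 10 genes of this pathway were followed here, chosen by symbol: *ARO3*, *ARO4*, *ARO1* and *ARO2* of the trunk, *ARO7* of the phenylalanine and tyrosine branch, and *TRP2*, *TRP3*, *TRP4*, *TRP1* and *TRP5* of the tryptophan branch. All 10 were found in both tables, out of 5699 genes listed in at least 1 of them.

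The diploid laboratory strain BYZ1 (MATa/MATalpha), a cross of haploids of S288c origin, is homozygous for *his3delta1*, for *leu2delta0* and for *ura3delta0* and heterozygous for *lys2delta0* and for *met15delta0*, and its genotype holds no deletion in aromatic amino acid synthesis. ZK2 is labelled as a bioethanol strain, with no genotype given. Both were grown from an OD600 of 0.05 in 25 mL of YPD and harvested in early stationary phase for RNA-Seq of poly(A) RNA. By the labels, the YPD held yeast extract at 1 g/L for BYZ1 and 10 g/L for ZK2, and peptone as well as glucose at 2 g/L for BYZ1 and 20 g/L for ZK2. The methods of the study describe for BYZ1 the recipe that the ZK2 label gives. YPD supplies amino acids, and strain and labelled medium cannot be told apart in this comparison. Each strain has 1 library, so no test between the strains was possible. RPKM scales the reads of a gene by its coding length and by the total of gene reads, and its brackets hold the exact Poisson 95% interval. Brackets after a ratio hold the exact binomial 95% interval. These intervals reflect counting error and not the differences between cultures, and they treat each read as a separate molecule.

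The libraries held 4687047 (BYZ1) and 4571043 (ZK2) uniquely mapped gene reads, with a median of 230 and 204 reads per listed gene. The BYZ1 label was checked on its deleted genes: *URA3* had 0 reads in BYZ1, a level below an RPKM of 0.796 (3 reads), and *LEU2* had 1 read, against 123 and 360 in ZK2. *HIS3*, *LYS2* and *MET17* (*MET15*) had 156, 451 and 145 reads in BYZ1 and 159, 993 and 43 in ZK2. Of the length of *HIS3*, of which *his3delta1* removes an inner part, reads covered 67.4% in BYZ1 and 98.9% in ZK2. Mating-type genes that diploid cells repress were low, with a summed RPKM of 48.0 and 33.8 for 5 a-specific genes and of 20.6 and 4.66 for 3 alpha-specific genes. The libraries differed in markers of growth state. Of 8 stationary-phase genes, 3 were at least 2-fold lower in ZK2 and 1 was at least 2-fold higher. Of all genes compared below, 10.3% were lower by that measure and 7.91% higher. The 8 genes took 2.82% of reads in BYZ1 and 1.42% in ZK2, while 8 ribosomal protein genes took 0.426% and 0.494%. The heat shock genes *HSP26* and *HSP12* carried the difference in the summed share, with 1.88% and 0.520%, and the other 6 together took 0.940% and 0.896%. Of those 6, *CTT1*, *SSA3* and *SOL4* were lower in ZK2 (ratios 0.127, 0.364 and 0.706). *SPI1* and *YGP1* were higher (2.67 and 1.68), and *GPH1* was at 0.984. The ratios of the ribosomal protein genes ran from 0.650 (*RPS20*) to 1.59 (*RPS13*). The part of growth state in the differences below was not tested.

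The upstream regions were searched first for the letters of the Gcn4p motif, because Gcn4p is the known activator of many genes of the pathway. The core TGACTC was searched on both strands (reverse complement GAGTCA) in the 300 bases before each start codon in the S288c reference R64 (RefSeq). It was found upstream of 4 of the 10 genes, *ARO1*, *TRP2*, *TRP3* and *TRP4*, and in 7.77% of 6001 such windows. The full motif TGACTCA, which contains the core, or its reverse complement TGAGTCA was present upstream of 3 of the 10 and in 2.62% of windows. The 4 stretches of 30 bases are printed on the strand of the gene with the core in capitals.
ARO1: ttgtcatgcataTGACTCatcccgaacatg
TRP2: acagtgatttgcTGACTCattacgattttt
TRP3: tcaatggctcgtTGACTCattctaatctat
TRP4: acctacgcagatTGACTCtctaaaaaatga
They lie at chr4:704249-704278 (*ARO1*, plus strand), chr5:337775-337804 (*TRP2*, plus strand), chr11:38259-38288 (*TRP3*, minus strand) and chr4:1184570-1184599 (*TRP4*, plus strand) of R64, and the core begins 223, 162, 123 and 165 bases before the start codon. None of the 4 cores lies inside another annotated gene. In *TRP4* the base after the core differs from that of the full motif. The other 6 genes do not hold these letters in the window, which says nothing about whether the factor binds there. Of 29 other amino acid synthesis genes, listed because they are under general control, 21 held the core. Such a list is not a neutral measure of how common the core is.

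Transcripts of the pathway were moderately abundant in both strains. In BYZ1 the 10 genes took 0.146% of all gene reads (6820 reads) and in ZK2 0.112% (5142 reads), a ratio of ZK2 to BYZ1 of 0.773 (0.745 to 0.802). The median RPKM of the 10 was 106 in BYZ1 and 73.7 in ZK2, against a median of all listed genes of 37.2 and 33.9. In BYZ1 7 of the 10 lay above the median of all genes, and in ZK2 8 did.

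**Figure D1:**
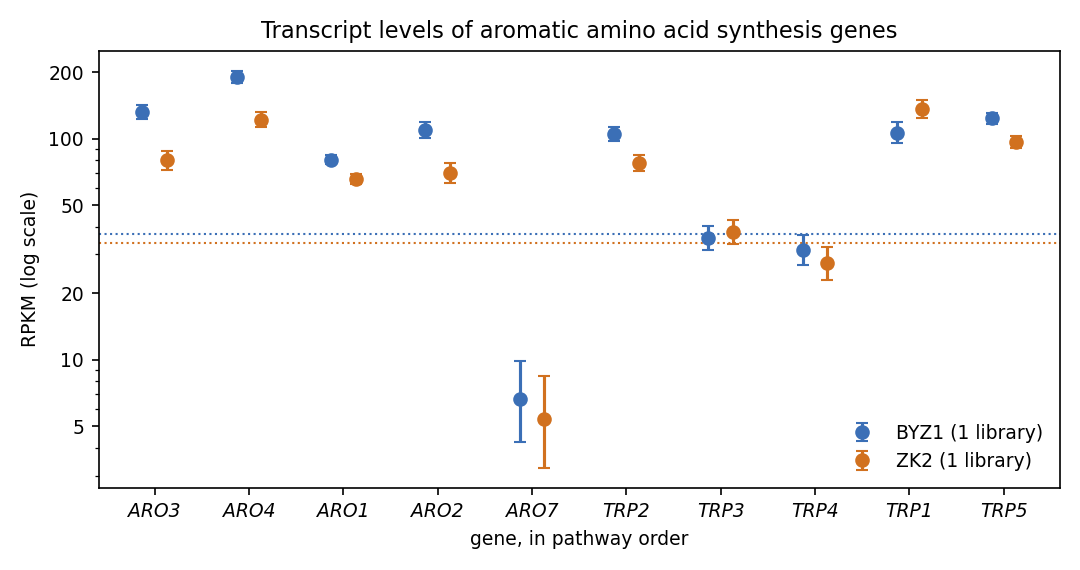
RPKM (log axis) of the 10 genes in pathway order in BYZ1 and ZK2, 1 library each, with exact Poisson 95% intervals as bars and the median of all listed genes as dotted lines. *ARO7* stands lowest in both strains, at 6.64 and 5.39, and *TRP1* is the gene whose ZK2 interval lies wholly above its BYZ1 interval.

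The genes of both entry enzymes were among the 3 with the lowest ratios of ZK2 to BYZ1, together with *ARO2*. *ARO3* and *ARO4* encode the DAHP synthase isozymes, which phenylalanine and tyrosine inhibit, respectively. *ARO4* (GeneID 852551, chromosome 2 from 716877 to 717989, minus strand, sacCer2) stood at an RPKM of 191 (179 to 203) in BYZ1 against 122 (113 to 132) in ZK2, from 996 and 621 reads. *ARO3* (GeneID 851605, chromosome 4 from 521814 to 522926, plus strand) had 132 (123 to 143) and 79.8 (72.2 to 88.0), from 690 and 406 reads. Both were lower in ZK2 and the intervals of the strains did not overlap. The ratio of ZK2 to BYZ1 was 0.639 (0.577 to 0.707) for *ARO4* and 0.603 (0.532 to 0.683) for *ARO3*.

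*ARO4* was the more abundant isozyme transcript in both strains. It exceeded *ARO3* by 1.44-fold (1.31 to 1.59) in BYZ1 and by 1.53-fold (1.35 to 1.74) in ZK2. The proportion in BYZ1 divided by that in ZK2 was 0.944 (0.803 to 1.11), so that no difference between the libraries beyond counting error was seen. Because only uniquely mapped reads were counted, the coding sequences of the isozymes were compared in R64. They hold the same base in 63.3% of the 1134 columns of their alignment, of which 42 hold a gap. Their most similar stretch of 50 bases without gaps differs at 6 positions, in capitals below.
ARO3: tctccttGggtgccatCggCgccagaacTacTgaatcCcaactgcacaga
ARO4: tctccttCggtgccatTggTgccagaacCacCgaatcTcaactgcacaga
These lie at chr4:522309-522358 (*ARO3*, plus strand) and chr2:717431-717480 (*ARO4*, minus strand). Reads covered 98.7% of *ARO3* in both libraries, and 99.6% of *ARO4*, so little of either gene was without unique reads. The build is one of S288c, the origin of BYZ1, so ZK2 reads that differ from it can be lost. The study names *ARO3* among genes that tended to gather more single-base differences in its own bioethanol strain, whose relation to ZK2 is not given. The part of such losses in the lower ZK2 levels was not tested.

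The trunk genes after the entry step were lower in ZK2 as well. *ARO1* encodes the pentafunctional enzyme that carries DAHP to the last intermediate before chorismate synthase, and with 4767 bp it is the longest of the 10. It lies on chromosome 4 from 704482 to 709248 (GeneID 851705, plus strand) and had 80.3 (76.6 to 84.1) in BYZ1 and 65.9 (62.6 to 69.4) in ZK2, from 1794 and 1437 reads. Its ratio of 0.821 (0.766 to 0.881) was the nearest to 1 of the 4 trunk genes. *ARO2*, the chorismate synthase gene on chromosome 7 from 226404 to 227534 (GeneID 852729, plus strand), had 109 (101 to 119) and 69.8 (62.8 to 77.4), from 580 and 361 reads. Its ratio was 0.638 (0.558 to 0.729), close to those of the isozymes. The summed reads of the 4 trunk genes gave a ratio of 0.713 (0.680 to 0.749).

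*ARO7* had the least transcript of the pathway in both strains. It encodes chorismate mutase, the enzyme that commits chorismate to phenylalanine and tyrosine, is activated by tryptophan and inhibited by tyrosine. The gene lies on chromosome 16 from 674858 to 675628 (GeneID 856173, minus strand). The BYZ1 library held 24 of its reads (RPKM 6.64, 4.26 to 9.88), and the ZK2 library 19 (RPKM 5.39, 3.25 to 8.42). The intervals overlap, and that of the ratio of 0.812 (0.420 to 1.55) allows a difference in either direction. Reads covered 59.3% and 68.2% of its length. Only 8.38% of listed genes were lower in BYZ1 and 6.94% in ZK2. *ARO7* was under an RPKM of 10 in both libraries, the only member that did not pass the filter used for the comparison across genes.

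The genes that compete for chorismate differed widely in level. *TRP2* exceeded *ARO7* by 15.9-fold (10.6 to 24.9) in BYZ1 and by 14.4-fold (9.13 to 24.1) in ZK2. The proportion in BYZ1 over that in ZK2 was 1.10 (0.564 to 2.12), so that no difference between the libraries beyond counting error was seen. Final steps after *ARO7* were also at low levels. *PHA2*, prephenate dehydratase of phenylalanine synthesis, had 15.7 in BYZ1 and 14.6 in ZK2 (ratio 0.928, 0.657 to 1.31). *TYR1*, prephenate dehydrogenase of tyrosine synthesis, had 18.7 and 13.2 (ratio 0.707, 0.527 to 0.944). *ARO8*, the aromatic aminotransferase that acts last in both, was far above them at 177 and 187 (ratio 1.05, 0.975 to 1.14).

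In the tryptophan branch the ratios lay on both sides of 1. *TRP2* and *TRP3* encode the partners of the anthranilate synthase complex, and Trp3p also carries indoleglycerol phosphate synthase. *TRP2* (GeneID 856824, chromosome 5 from 337945 to 339468, plus strand) had 105 (98.0 to 113) in BYZ1 and 77.7 (71.3 to 84.5) in ZK2, from 753 and 541 reads. *TRP3* (GeneID 853669, chromosome 11 from 36700 to 38154, minus strand) had 35.6 (31.3 to 40.4) and 37.9 (33.4 to 42.9), from 243 and 252 reads. *TRP2* was thus lower in ZK2, with a ratio of 0.737 (0.658 to 0.824), while the intervals of *TRP3* overlap and its ratio was 1.06 (0.888 to 1.27). *TRP2* exceeded *TRP3* by 2.96-fold (2.56 to 3.43) in BYZ1 and by 2.05-fold (1.76 to 2.39) in ZK2. The proportion in BYZ1 over that in ZK2 was 1.44 (1.17 to 1.79), so that it differed between the libraries beyond counting error.

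The next enzymes of the branch are encoded by *TRP4* (anthranilate phosphoribosyltransferase), *TRP1* (phosphoribosylanthranilate isomerase) and *TRP5* (tryptophan synthase). *TRP4* (GeneID 851956, chromosome 4 from 1184741 to 1185883, plus strand) had 31.5 (27.0 to 36.7) in BYZ1 and 27.4 (23.1 to 32.2) in ZK2, from 169 and 143 reads, with overlapping intervals and a ratio of 0.868 (0.690 to 1.09). *TRP5* (GeneID 852858, chromosome 7 from 446417 to 448540, minus strand) had 124 (117 to 131) and 96.9 (90.8 to 103), from 1234 and 941 reads. It was lower in ZK2, with a ratio of 0.782 (0.718 to 0.852).

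*TRP1* was higher in ZK2. This gene, widely used as an auxotrophic marker and intact in the BYZ1 genotype, lies on chromosome 4 from 461840 to 462514 (GeneID 851570, plus strand). It had 337 reads over 95.1% of its length in BYZ1 and 421 reads over 97.8% in ZK2. The RPKM was 107 (95.4 to 119) and 136 (124 to 150), and the ratio of 1.28 (1.11 to 1.48) was the highest of the 10. *TRP5* exceeded *TRP1* by 1.16-fold (1.03 to 1.32) in BYZ1, and in ZK2 their proportion was 0.710 (0.633 to 0.799). The proportion in BYZ1 over that in ZK2 was 1.64 (1.38 to 1.94). The summed reads of the 5 tryptophan genes gave a ratio of ZK2 to BYZ1 of 0.861 (0.814 to 0.911), nearer to 1 than that of the trunk.

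**Figure D2:**
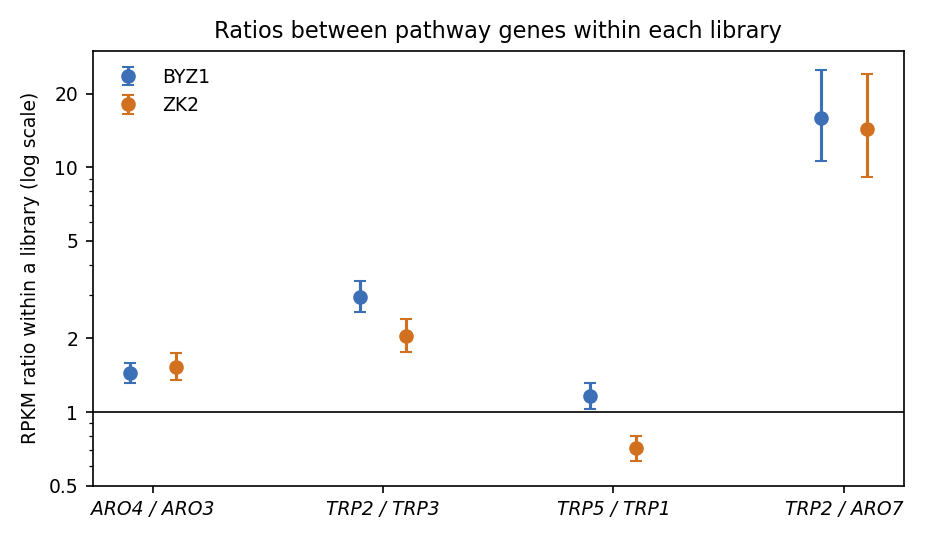
RPKM of a gene divided by that of another within each library (log axis), with exact binomial 95% intervals as bars. *TRP2* over *TRP3* (2.96 and 2.05) and *TRP5* over *TRP1* (1.16 and 0.710) differ between BYZ1 and ZK2 beyond counting error, whereas *ARO4* over *ARO3* (1.44 and 1.53) and *TRP2* over *ARO7* (15.9 and 14.4) have overlapping intervals.

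The order of levels differed between the libraries mainly at the top. In BYZ1 it ran *ARO4*, *ARO3*, *TRP5*, *ARO2*, *TRP1*, *TRP2*, *ARO1*, *TRP3*, *TRP4*, *ARO7*. Neighbors that did not differ beyond counting error were *ARO3* and *TRP5*, *ARO2* and *TRP1*, *TRP1* and *TRP2*, and *TRP3* and *TRP4*. In ZK2 it ran *TRP1*, *ARO4*, *TRP5*, *ARO3*, *TRP2*, *ARO2*, *ARO1*, *TRP3*, *TRP4*, *ARO7*, with *TRP1* and *ARO4* at the top not distinguishable (1.12-fold, 0.985 to 1.27). The neighbors *ARO3* and *TRP2*, *TRP2* and *ARO2*, and *ARO2* and *ARO1* also could not be told apart. *TRP3*, *TRP4* and *ARO7* held the last places in both libraries.

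No other gene annotated in R64 overlaps any of the 10, and each is a coding stretch without an intron in the BYZ1 table. *ARO1*, *ARO3*, *TRP1* and *TRP4* share chromosome 4. The study reports that a region of this chromosome is amplified in BYZ1, from array hybridization against its own bioethanol strain. By its quantitative PCR the amplification was already present in a parent of BYZ1. It names the Ty element YDR180W-A as one of the flanks. The locus names of the 4 genes are YDR127W (*ARO1*), YDR035W (*ARO3*), YDR007W (*TRP1*) and YDR354W (*TRP4*). The coordinates of that region were not compared here with those of these genes. A part of copy number in the ratios of the 10 genes was not tested.

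**Figure D3:**
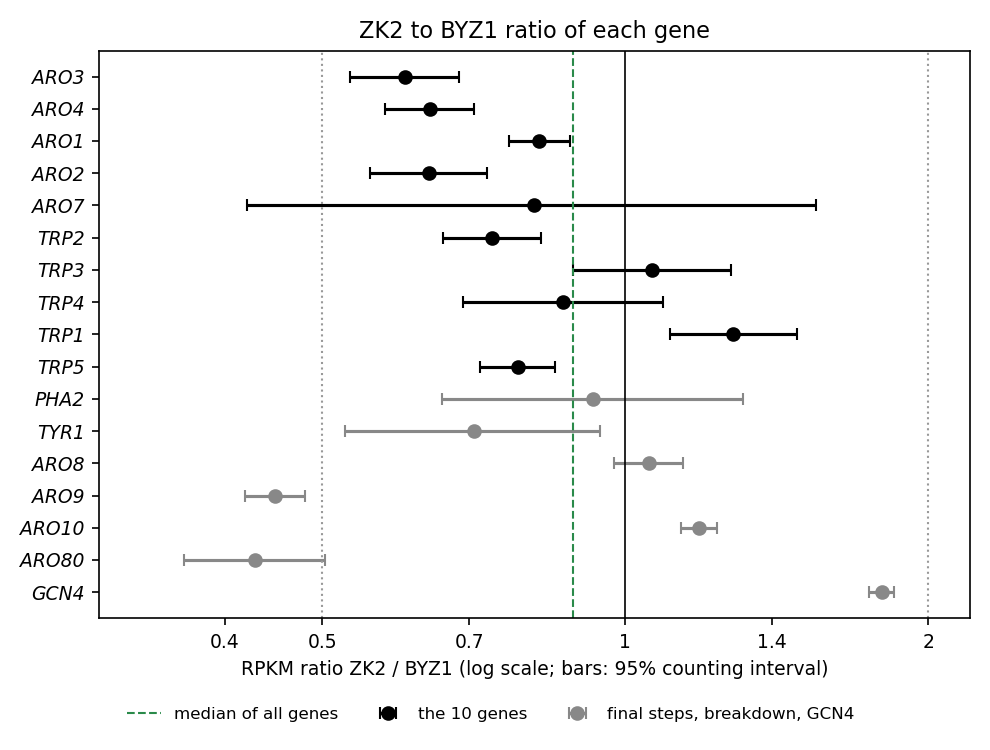
Ratio of RPKM in ZK2 to that in BYZ1 (log axis) of the 10 genes (black), and of *PHA2*, *TYR1*, *ARO8*, *ARO9*, *ARO10*, *ARO80* and *GCN4* (gray), with exact binomial 95% intervals as bars. The solid line marks a ratio of 1, the dashed line the median of all genes tested and the dotted lines a change of 2-fold. All 10 points lie between the dotted lines, from 0.603 (*ARO3*) to 1.28 (*TRP1*). By log2 ratios on RPKM plus 1, 7.91% of all genes tested were past 2-fold higher and 10.3% lower.

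Across genes, log2 ratios were taken on RPKM plus 1, which understates the change of low genes, over the 5080 genes that reached an RPKM of 10 in BYZ1 or in ZK2. The pathway did not differ by 2-fold in any member. At a log2 ratio of 1 or more were 0 of the 10 genes, where 7.91% of all genes tested were, and at -1 or less 0 of the 10, where 10.3% were. The interval of the ratio lay wholly below 1 for 6 of the 10 (*ARO1*, *ARO2*, *ARO3*, *ARO4*, *TRP2* and *TRP5*), against 44.1% of genes tested, and wholly above 1 for *TRP1* alone, against 27.0%. Such intervals narrow with depth, and 8 of the 10 genes had more reads than the median gene in each library. The median log2 ratio was -0.32 for the 10 genes and -0.35 for the 9 that passed the filter. The median of all genes tested was -0.17.

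The median of all genes was below 0, and this shift depends on the scale. With the TMM factor it was 0.00, and higher genes made up 60.8% of the calls past 2-fold in place of 43.4%. On that scale the ratio of *ARO3* was 0.681 (0.601 to 0.771), that of *ARO1* 0.928 (0.865 to 0.995) and that of *TRP1* 1.45 (1.25 to 1.67). *TRP3*, whose interval included 1 before, was at 1.20 (1.003 to 1.44). Of the 10 genes 6 had intervals below 1 on this scale (34.2% of genes tested) and 2 above 1 (35.3%), and the median of the 9 was -0.18. Relative to the median of all genes, the 9 genes stood lower by 0.18 on either scale, and 7 of them lay below it. A change of scale shifts all log2 ratios nearly alike, so this agreement between scales was fixed in advance. The distance depends on the filter, at 0.32 for the 7 genes that reached an RPKM of 50 and 0.14 for all 10 without a filter.

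**Figure D4:**
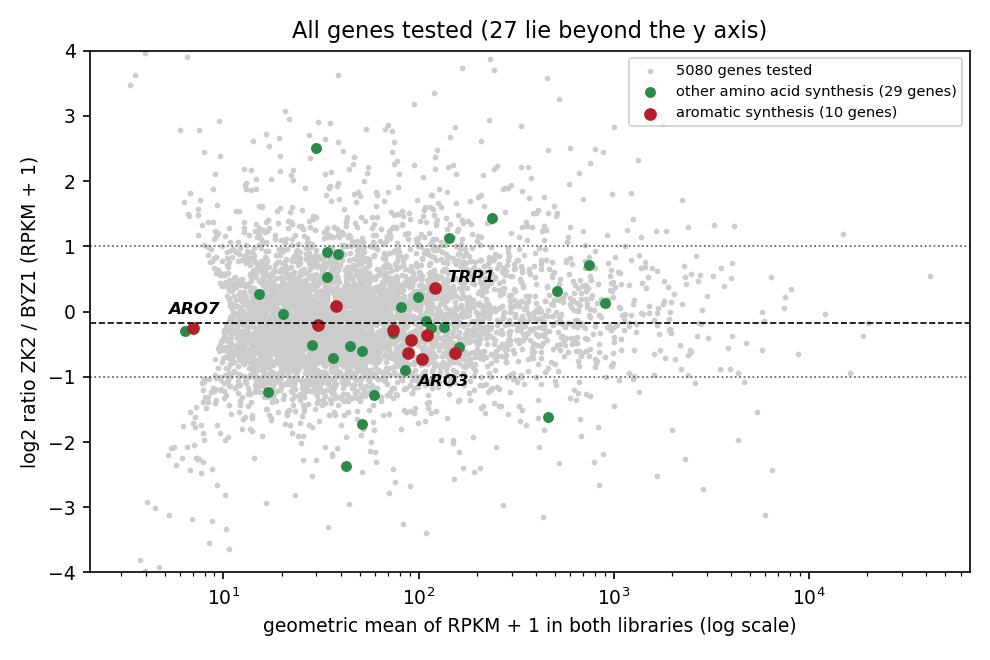
Log2 ratio of ZK2 to BYZ1 against the geometric mean of RPKM plus 1 (log axis) for the 5080 genes tested (gray), 29 other amino acid synthesis genes (green) and the 10 genes (red), 1 library per strain. The dashed line is the median of all genes, -0.17, and the dotted lines are at 1 and -1. The red points stay between the dotted lines and 8 of the green points do not. Of all genes tested, 7.91% were at 1 or more and 10.3% at -1 or less.

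Genes with the core motif upstream and those without it overlapped in their ratios. The ratios of *ARO1*, *TRP2*, *TRP3* and *TRP4* were 0.821, 0.737, 1.06 and 0.868. Those without the letters in the window ran from 0.603 (*ARO3*) to 1.28 (*TRP1*), on both sides of the former. The letters were read in the S288c reference and not in ZK2, and a part of Gcn4p in the ratios was not tested. *GCN4* itself had a high and different level in the strains, at an RPKM of 1965 (7793 reads) in BYZ1 and 3533 (13662 reads) in ZK2, a ratio of 1.80 (1.75 to 1.85). Gcn4p is controlled largely through translation of its mRNA, so the transcript level is not a measure of the protein. A list of 7 regulator genes held *GCN4*, *GCN2*, *GCN1*, *GCN20*, *YIH1*, *BAS1* and *PHO2*, not all of them activators of general control. Of these 0 were past 2-fold, beside 7.91% of all genes tested higher and 10.3% lower, and their median log2 ratio was 0.15. With the TMM factor *GCN4* and *GCN1* passed 2-fold, at log2 ratios of 1.02 and 1.03. *GCN1*, an activator of the Gcn2p kinase, was at 35.2 and 64.6 (log2 ratio 0.86), and *GCN2*, the kinase gene itself, at 32.9 and 20.1 (log2 ratio -0.68).

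Among the 29 other amino acid synthesis genes under general control, some were past 2-fold in each direction. At a log2 ratio of 1 or more were 3 of the 29, beside 7.91% of all genes tested, and at -1 or less 5, beside 10.3%, with a median of -0.23. With the TMM factor 5 were past it in each direction, beside 10.5% of all genes tested above and 6.79% below. The higher ones were *ARG3*, ornithine carbamoyltransferase, at 11.5 in BYZ1 and 70.1 in ZK2 (log2 ratio 2.50), *ARG1*, argininosuccinate synthetase (1.44), and *ILV1*, threonine deaminase (1.12). Among the lower were *LEU1*, isopropylmalate isomerase, at 95.2 and 17.7 (-2.37), *LYS9*, saccharopine dehydrogenase (-1.73), and *LEU4*, isopropylmalate synthase (-1.62). Leu4p and Leu1p act before the product of *LEU2*, which is deleted in BYZ1, and a contribution of that deletion was not tested. The 10 aromatic genes stayed between log2 ratios of -0.72 and 0.35.

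Some genes that bring in amino acids or break down aromatic ones were past 2-fold. Of 6 amino acid permease genes 3 were past 2-fold higher in ZK2, beside 7.91% of all genes tested, and none lower, beside 10.3%. Their median log2 ratio was 0.84. The 3 were *AGP1*, a broad permease, at 109 and 289 (log2 ratio 1.39), and the branched-chain permease genes *BAP3* (1.33) and *BAP2* (1.30). The tyrosine and tryptophan permease gene *TAT1* (log2 ratio 0.31) and the tryptophan permease gene *TAT2* (0.30) were not past 2-fold. In breakdown, *ARO9*, the aromatic aminotransferase induced by aromatic amino acids, was at 377 in BYZ1 and 169 in ZK2, a ratio of 0.448 (0.419 to 0.480). *ARO80*, its activator, was at 38.8 and 16.6, a ratio of 0.429 (0.364 to 0.503). With the TMM factor their log2 ratios were -0.98 and -1.01, so that *ARO9* was no longer past 2-fold. The decarboxylase gene *ARO10*, another target of Aro80p, was not lower, at 474 and 561 (ratio 1.18, 1.14 to 1.23), and was named after its value was seen.

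Some genes of enzymes that make precursors were past 2-fold, in either direction. Of 5 PRPP synthetase genes, whose product is used by Trp4p, 3 were past 2-fold higher in ZK2: *PRS1* (log2 ratio 1.14), *PRS5* (1.03) and *PRS3* (1.02). Of 4 genes of transketolase and transaldolase, which make or use erythrose 4-phosphate, *TKL1* was at 86.6 and 278 (log2 ratio 1.67) and *NQM1* at 823 and 234 (-1.81), and the median of the list was -0.07. Of 7 genes of the kynurenine path from tryptophan to NAD, *BNA5*, kynureninase, was the only one past 2-fold (log2 ratio 1.01, median of the list 0.50). These calls stood with the TMM factor too. Over all genes tested, 7.91% were past 2-fold higher in ZK2 and 10.3% lower, and with the TMM factor 10.5% and 6.79%.

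In the remaining lists no gene was past 2-fold on the deposited scale. Of the pair of p-aminobenzoate genes, which draw on chorismate, *ABZ1* was at 52.8 and 32.6 (log2 ratio -0.68) and *ABZ2* at 33.0 and 34.0 (0.04). The 7 tRNA synthetase genes for aromatic amino acids had a median log2 ratio of 0.05, from -0.35 for *FRS2*, of the cytosolic phenylalanine enzyme, to 0.91 for *MSW1*, the mitochondrial tryptophan enzyme with 40 and 78 reads, which was past 2-fold with the TMM factor (log2 ratio 1.07). Among the genes of all these lists, those with a log2 ratio nearest to the median of the 9 aromatic genes were *FRS2* (-0.35), *BAT1* (-0.33) and *ORT1* (-0.30), measured over 2 libraries. *ORT1*, with 25 and 19 reads, was under the RPKM filter, and the interval of its ratio (0.406 to 1.47) includes 1.

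**Figure D5:**
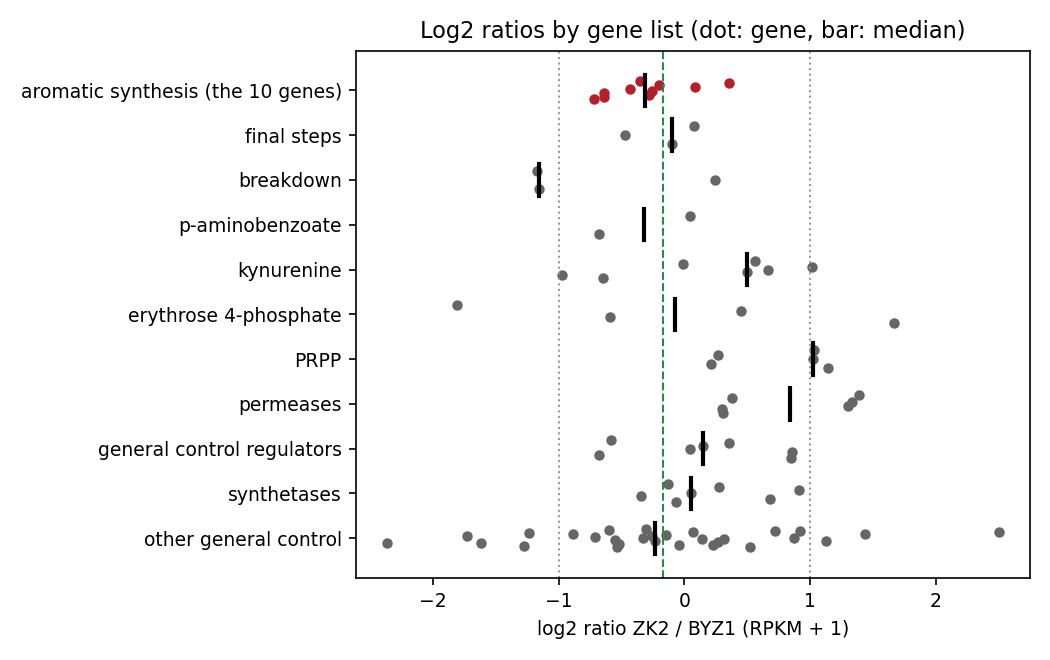
Log2 ratio of ZK2 to BYZ1 of each gene (dots) in the 10 aromatic synthesis genes (red) and in 10 related lists (gray), with the median of each list as a bar, the median of all genes as the dashed line and log2 ratios of 1 and -1 as dotted lines. The aromatic synthesis genes lie between -0.72 and 0.35, while the permeases and PRPP genes have medians of 0.84 and 1.02.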

How the data were processed

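Poly(A) RNA of BYZ1 and ZK2 in early stationary phase was sequenced on an Illumina instrument, with 1 library per strain. Per the methods of the study, the authors removed adapter and low-quality reads and aligned the rest to genes with SOAPAligner. Its version and the aligner of ZK2 are not given in the sources used here. The build is sacCer2 by the submitters' processing notes. The deposited read counts are uniquely mapped reads per gene, the deposited RPKM divides them by coding length and by the total of gene reads, and the deposited percent is the part of the length that reads covered. A gene with no read has no row.

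The members and lists were chosen with earlier results of these data known. Log2 ratios of ZK2 to BYZ1 used RPKM plus a pseudocount of 1, over genes that reached an RPKM of 10 in either library. Intervals were exact Poisson for levels and exact binomial (Clopper-Pearson) for ratios, at 95%, in SciPy 1.17.1 under Python 3.11.15, and intervals of a ratio of ratios were conditional odds ratios. The log2 ratios and the intervals of ratios were tested on simulated Poisson counts, the error the intervals assume. Variation between cultures was not simulated. The TMM factor came from edgeR 4.0.16. Alternatives were other scales, pseudocounts and filters. Sequences are from RefSeq R64, matched by gene identifier, and gene coordinates were taken from the BYZ1 table. The text names all 10 members, *PHA2*, *TYR1*, *ARO8*, *ARO9* and *GCN4*, and in every other pathway list (not the marker lists) the genes past a log2 ratio of 1 in size, at most 3 each way, or the extremes where none was. Other names were chosen after their values were seen.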

Additional observations from a re-analysis of the deposited data

How the results depend on the processing

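Each strain has 1 library, so no library could be left out. No paired analysis was possible because each strain has 1 library and no test was run. No member passed a log2 ratio of 1 in size under any of the 7 alternatives, and every member kept the sign of its log2 ratio. Neither a filter nor a pseudocount can change that sign, so only the changes of scale could. The TMM factor and the median of the gene ratios each shifted the log2 scale by 0.18. The totals without the 10 highest genes shifted it by -0.009. *TRP4* came nearest to a change of sign, at -0.03. The median of the members lay between -0.44 (RPKM filter of 50) and -0.18 (TMM factor, or the median of the gene ratios as the scale). Relative to the median of all genes it lay between -0.32 (RPKM filter of 50) and -0.14 (no filter), against -0.18. The number of all genes at a log2 ratio of -1 or less was 524, and it was 345 with the TMM factor, 341 with the median of the gene ratios as the scale and 274 under the RPKM filter of 50, where fewer genes were tested. A filter does not enter the log2 ratio of a single gene, so member values could not move under the filter alternatives. Of 67 single values of members under the alternatives, those included, 59 moved by less than their counting interval and 8 by more. These 8 were *ARO1*, *ARO4*, *TRP2* and *TRP5* under the TMM factor and the median of the gene ratios. The ratios between members within a library do not depend on the scale, since it cancels. Depth limited *ARO7* most, with 24 and 19 reads.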
